A study of Mus musculus with 20 samples.

Results

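The glutamate receptor genes were followed in 4 groups of mouse brain progenitor cells. The members were all genes named by the families Gria, Grik, Grid, Grin and Grm, which encode the AMPA, kainate, delta, NMDA and metabotropic receptors, together with Neto1, Neto2, Elfn1 and the Cacng family. Of the 37 mouse symbols of these families in RefSeq, 33 had a probe set that the platform annotation ties to that single gene, out of 18193 genes so represented, and the remaining 4 were not analysed here. The 33 genes had 63 such probe sets, and each gene was represented by the probe set with the highest mean log2 signal.

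Total RNA of each sample was hybridised to 1 single-colour Affymetrix array, 20 arrays in all. The groups were embryonic progenitors that had been transduced (a genetic modification, per the labels), embryonic control progenitors, transformed postnatal progenitors and postnatal control progenitors, with 5 arrays each. The labels describe all 20 samples as brain cell lines, and the series title calls them glial progenitors. They do not name the introduced sequence, the transforming agent, the brain region or the number of clones, and they are silent on whether the samples of a group are separate cultures. The p-values therefore cover the sample-to-sample spread alone, which may be technical.

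Ionotropic glutamate receptors are ion channels that open when glutamate binds, and metabotropic receptors signal through G proteins. AMPA and kainate receptors carry fast current, NMDA receptors admit calcium, and auxiliary subunits such as the TARPs (encoded by Cacng genes) and the Neto proteins set how receptors reach the membrane and how they gate. Oligodendrocyte progenitors, a glial progenitor of the embryonic and postnatal brain, receive synapses from neurons and are known to carry AMPA and kainate receptors and a lower level of NMDA receptors.

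Signals are linear units as deposited, each array scaled to the same trimmed mean. A gene was counted as above background on an array when it exceeded the 95th percentile of 27 bacterial control probe sets of that array, a level of 107 to 221. A gene is called higher or lower at a Benjamini-Hochberg adjusted p under 0.05 over all 18193 genes (limma, two-sided, on log2 of signal + 16) if its level also differs 2-fold or more. The standard error stands beside each log2 change. Where a gene lay above background on only 1 to 3 of the 5 arrays of a group the log2 change is called fitted, since it depends on the offset, and where it lay above on none the fold is a lower bound. Levels of different genes are not compared, because probe sets differ in brightness for the same amount of RNA.

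The progenitor label was checked against markers. Sox2 averaged 45953 in embryonic transduced and 45708 in embryonic control cells, and 36853 in postnatal transformed and 61414 in postnatal control cells. Sox2 is 1 of 7 neural stem and progenitor markers measured. Their summed signal per array was lower in embryonic transduced cells, at 230322 to 241491, than in embryonic control cells, at 327966 to 400649. In postnatal cells it was 259744 to 276913 after transformation and 215275 to 301210 in controls. Olig2, a transcription factor of the oligodendrocyte lineage, averaged 37229 and 70639 in the same embryonic groups and 47395 and 69691 in the postnatal groups. All 10 oligodendrocyte progenitor markers were above background on at least 4 of 5 arrays in embryonic control, postnatal transformed and postnatal control cells, and 7 of 10 were in embryonic transduced cells. The microglial markers Aif1, C1qa and Itgam and the endothelial marker Pecam1 were at background on every array of all 4 groups, as was Mog of mature oligodendrocytes. Other members of these lists were above background on at least 4 of 5 arrays. In the group order of the Sox2 values they were 1, 1, 2 and 2 of 8 microglial markers. They were 3, 2, 3 and 1 of 7 endothelial and mural markers, and 4, 3, 4 and 5 of 7 mature oligodendrocyte markers. Neuronal markers were above for 7, 10, 9 and 9 of 10, and astrocyte markers for 8, 8, 8 and 9 of 10. Within postnatal control cells, arrays 4 and 5 stood apart for the proliferation marker Mki67, at 5929 and 4351, against 37266, 34816 and 35822 on arrays 1 to 3. Results of single receptor genes that rest on them are also given without them. Counts and sums of markers and of other gene lists are given with all 5 arrays only.

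Glutamate receptor genes were above background on at least 4 of 5 arrays for 13 of 33 in embryonic transduced cells and for 22 in embryonic control cells. The count was 21 of 33 in postnatal transformed cells and 23 in postnatal control cells. Among all genes the share was 68%, 68.4%, 69.9% and 67.6% in the same order of groups. The transduced cells had the lowest count of receptor genes above background, while the share of all genes above background was alike in the 4 groups. The gap depended on the background level: with the median of the bacterial probe sets in place of their 95th percentile the counts were 27 and 28 in embryonic transduced and control cells, and 31 and 28 in postnatal transformed and control cells.

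**Figure D1:**
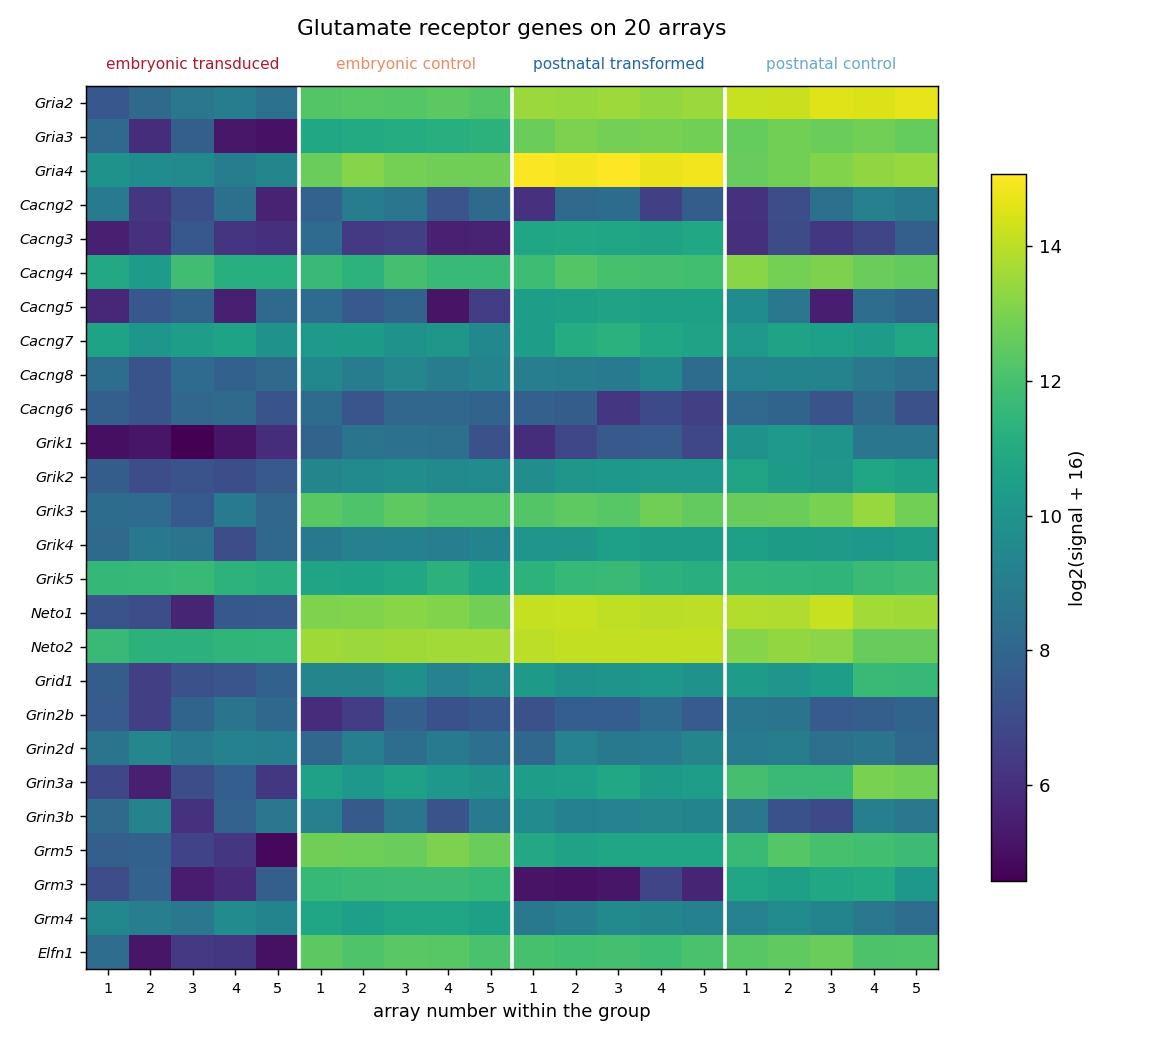
Heat map of log2(signal + 16) of the 26 described genes (rows) on the 20 arrays (columns, array 1 to 5 within embryonic transduced, embryonic control, postnatal transformed and postnatal control cells). Colours compare arrays within a row, not genes with each other, and the first block of 5 columns is darkest for Gria2, Gria3, Grik3, Neto1, Grm5 and Elfn1.

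In embryonic cells 15 of the 33 genes were called lower after transduction and 0 were called higher. Of all genes, 5.74% were called lower and 8.61% higher in this comparison, while 15 of 33 is 45.5%. In postnatal cells 4 of the 33 were called higher and 4 lower after transformation, where 9.56% and 6.40% of all genes were called; 4 of 33 is 12.1%, near those shares. The median log2 change of the 33 genes was -0.95 in embryonic cells (-0.55 with members below background set at their bound) against 0.075 for all genes, and -0.04 in postnatal cells against -0.0024. The postnatal minus embryonic response was itself tested: it was called higher for 15 of the 33 genes and lower for 0, against 9.36% and 9.75% of all genes. For this difference 1702 of all genes were called higher and 1773 lower as deposited, against 1991 and 1547 with quantile normalization and 1952 and 1506 with centring on the 75th percentile.

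The bases just before the annotated start were read from RefSeq (GRCm38.p6) as promoter windows. Of the genes called lower in transduced embryonic cells, 8 had a window, and 5 (Elfn1, Grm3, Grik3, Gria2 and Gria4) are shown. Gria4 was also called higher in transformed postnatal cells, as were Cacng3, Cacng5 and Neto2, whose windows are not shown. The windows below are therefore a selection from those read. Each runs 5′ to 3′ on the strand of its gene, and capitals mark a match to any of 6 motifs searched on both strands.
Elfn1, chr5:139907616-139907865, plus strand: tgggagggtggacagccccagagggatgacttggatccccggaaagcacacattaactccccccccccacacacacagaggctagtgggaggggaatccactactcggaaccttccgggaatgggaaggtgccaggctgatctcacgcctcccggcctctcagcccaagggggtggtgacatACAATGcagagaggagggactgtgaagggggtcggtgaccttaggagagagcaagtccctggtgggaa
Grm3, chr5:9725353-9725602, minus strand: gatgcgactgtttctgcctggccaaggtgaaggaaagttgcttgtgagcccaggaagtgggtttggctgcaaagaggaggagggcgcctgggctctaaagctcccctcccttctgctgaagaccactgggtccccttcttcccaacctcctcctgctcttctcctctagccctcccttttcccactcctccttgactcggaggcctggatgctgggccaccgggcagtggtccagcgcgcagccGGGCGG
Grik3, chr4:125490446-125490695, plus strand: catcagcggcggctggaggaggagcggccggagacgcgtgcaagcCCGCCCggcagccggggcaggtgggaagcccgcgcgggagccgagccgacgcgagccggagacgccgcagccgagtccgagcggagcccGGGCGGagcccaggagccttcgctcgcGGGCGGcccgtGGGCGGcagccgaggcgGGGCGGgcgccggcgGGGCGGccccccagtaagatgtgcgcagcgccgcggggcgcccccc
Gria2, chr3:80802836-80803085, minus strand: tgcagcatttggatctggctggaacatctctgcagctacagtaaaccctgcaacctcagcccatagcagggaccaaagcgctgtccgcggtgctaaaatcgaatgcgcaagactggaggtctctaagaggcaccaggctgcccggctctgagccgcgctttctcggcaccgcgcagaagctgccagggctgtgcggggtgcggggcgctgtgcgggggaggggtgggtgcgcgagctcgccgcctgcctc
Gria4, chr9:4796235-4796484, minus strand: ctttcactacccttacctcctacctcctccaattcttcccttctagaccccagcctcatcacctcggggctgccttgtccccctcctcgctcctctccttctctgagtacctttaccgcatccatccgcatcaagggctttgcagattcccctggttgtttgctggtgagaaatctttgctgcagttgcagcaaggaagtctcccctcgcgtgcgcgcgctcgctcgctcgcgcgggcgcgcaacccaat
The motifs were GGGCGG (the GC box), TATAAA (the TATA box), TGACGTCA (the cyclic AMP response element), CAGCTG (an E-box), ACAATG (a core that Sox factors bind) and TTCAGCACC (part of the RE1 element). None of the 6 contains another.

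In all, 21 of the 33 genes had a promoter row, with 26 windows. GGGCGG was found in 12 of these 26 windows, against 32.7% of the 32851 windows of all genes, and in 3 of the 9 windows of genes called lower in embryonic cells. The Grik3 window held it 6 times and had a GC content of 82.0%. Matches to the other motifs were few: TATAAA in 1 of 26 windows (12.4% of all windows), CAGCTG in 2 (13.0%), ACAATG in 1 (10.7%), TTCAGCACC in 1 (0.301%) and TGACGTCA in 0 (1.55%). The median GC content was 62.0% for the 26 windows, against 52.4% for all windows. These are matches of letters in the window, and the factors that bind such motifs were not measured at these sites.

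Of the 4 AMPA receptor subunit genes, 3 (Gria2, Gria3 and Gria4) were called lower in transduced embryonic cells. In transformed postnatal cells 1 (Gria4) was called higher and 0 lower. In bulk RNA a lower signal can come from fewer cells that express a gene or from less RNA per cell, and these cannot be told apart.

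Gria2 encodes the subunit that, in its edited form, keeps AMPA receptors nearly impermeable to calcium. Its signals were 157, 281, 413, 508 and 345 in embryonic transduced cells, against 4862, 5230.4, 5029, 5457 and 4924 in embryonic control cells. In postnatal transformed cells they were 11638, 11138, 11999, 10668 and 11518, against 18647, 19281, 24228, 23696 and 26271 in postnatal control cells. Every transduced array lay more than an order of magnitude below the lowest postnatal array, and neither pair of groups overlapped. The log2 change was -3.94 ± 0.19 in embryonic cells (adjusted p = 1.95e-13) and -0.96 ± 0.19 in postnatal cells (adjusted p = 0.000197), where the change was just short of 2-fold. The other 2 Gria2 probe sets were called lower in both responses, at -5.10 and -2.51 in embryonic cells and at -1.35 and -2.14 in postnatal cells, so the postnatal call of Gria2 depended on the probe set.

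Gria3, an X-linked AMPA subunit gene, had signals of 273, 46.3, 198, 21.6 and 18.1 in embryonic transduced cells, with 1 of 5 arrays above background, against 1792, 2014, 2171, 2341 and 2524 in embryonic control cells. The postnatal transformed cells gave 6681, 8194, 7437, 7659 and 7268, and the postnatal control cells 6080.4, 7224, 6709, 7329 and 6218. Transduced cells sat at background while the other 3 groups were bright, and the postnatal groups overlapped. The fitted change was -4.64 ± 0.41 in embryonic cells (adjusted p = 4.94e-09), against 0.15 ± 0.41 in postnatal cells (adjusted p = 0.818).

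Gria4 encodes an AMPA subunit known for fast-gating receptors of early development. It read 985, 800.2, 731, 484 and 655 in embryonic transduced cells, against 6582, 9075, 7474, 7037 and 7173 in embryonic control cells. In postnatal transformed cells it read 33530.4, 30584, 34520.2, 28246 and 29473, against 6379.8, 7219.8, 8567, 10271 and 11151 in postnatal control cells. Both pairs of groups were apart, in opposite directions. The log2 change was -3.35 ± 0.16 (adjusted p = 1.36e-13) in embryonic cells and 1.87 ± 0.16 (adjusted p = 1.89e-09) in postnatal cells, and the difference between the responses was 5.22 ± 0.22 (adjusted p = 7.72e-14). All 3 probe sets of Gria4 were called lower in embryonic and higher in postnatal cells, with postnatal changes between 1.60 and 2.18. Gria1, the remaining AMPA subunit gene, was above background on 1 of 20 arrays, at signals of up to 198.

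**Figure D2:**
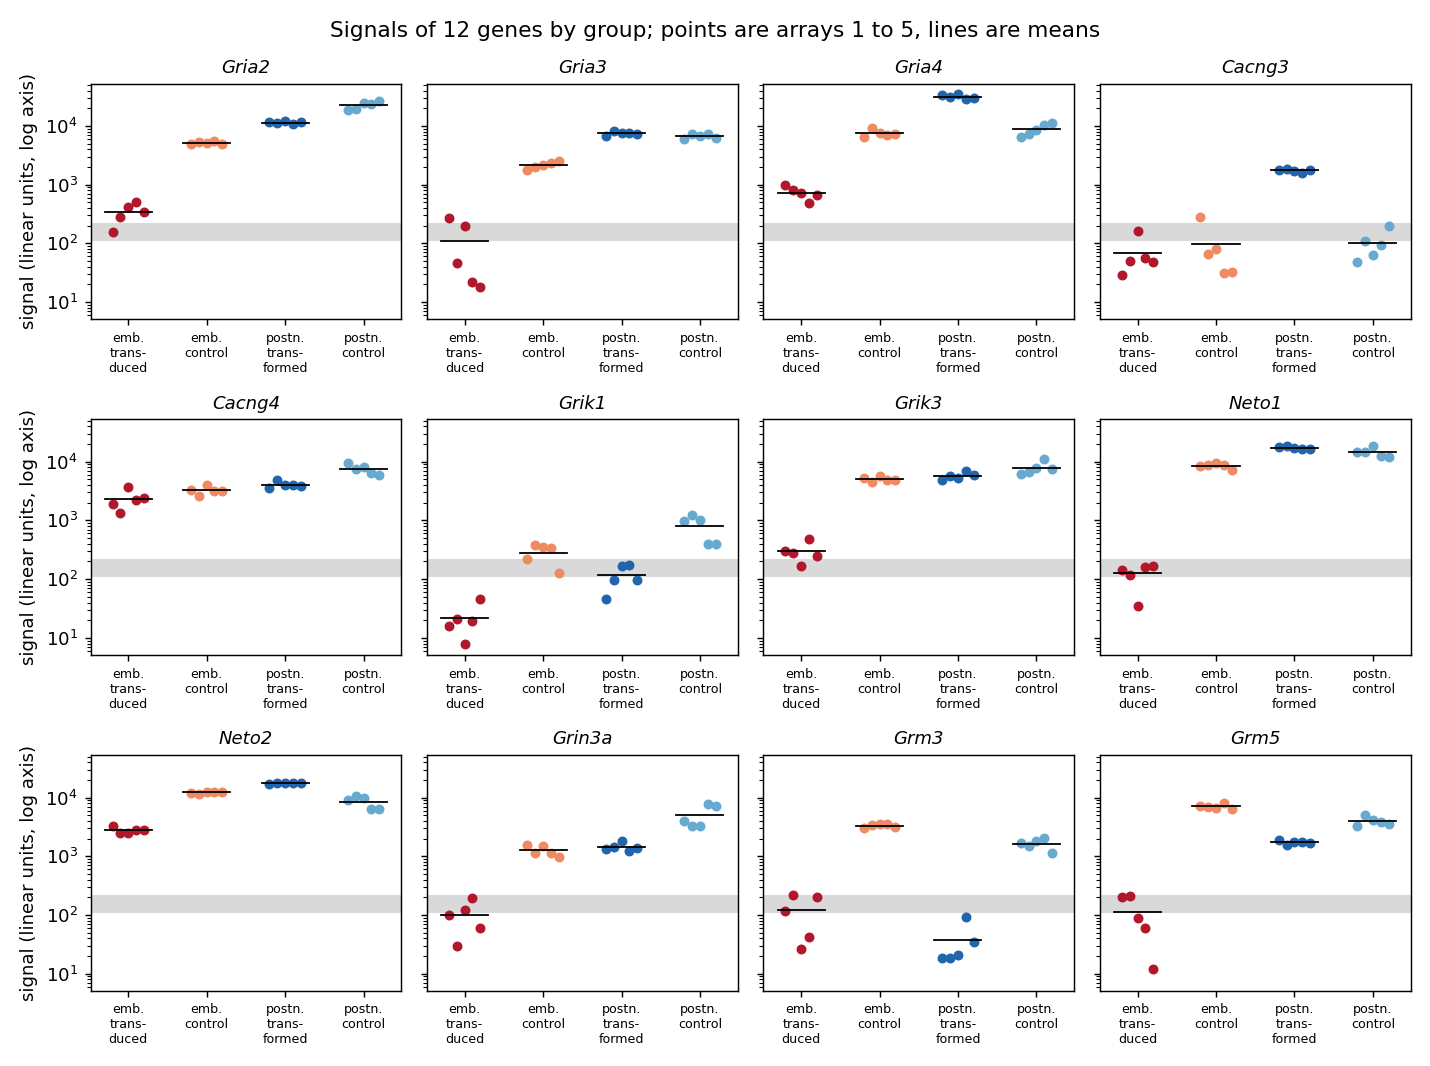
Signals of 12 genes on a log axis in linear units as deposited, 1 panel per gene, with embryonic transduced, embryonic control, postnatal transformed and postnatal control cells from left to right. Points are the 5 arrays of a group, black lines their means, and the grey band is the range of the background level over arrays (107 to 221); the transduced points fall in or near the band for Gria3, Neto1, Grm5 and Grm3, and the transformed points of Gria4 and Cacng3 stand above the other groups.

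Among the AMPA receptor auxiliary genes, 2 of 6 TARP genes were called higher in postnatal cells and 1 of 6 was called lower in embryonic cells. Cacng3 encodes a TARP that is best known from neurons of the forebrain. Its signals were 28.9, 50.3, 161, 55.8 and 47.8 in embryonic transduced cells, against 284, 65.4, 79.7, 30.8 and 32.8 in embryonic control cells. They were 1769.8, 1878, 1703, 1583 and 1809 in postnatal transformed cells, against 47.7, 109, 62.3, 92.9 and 200.4 in postnatal control cells. It was above background on all 5 transformed arrays and on 0, 1 and 1 arrays of the embryonic transduced, embryonic control and postnatal control groups. The fitted postnatal change was 4.03 ± 0.46 (adjusted p = 2.18e-07), with means of 1749 ± 112 in transformed and 103 ± 59.9 in control cells (SD, n = 5 each).

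Cacng5, which encodes a TARP known from glia and from some neurons, gave 1351, 1463, 1555, 1465 and 1464 in postnatal transformed cells, against 803, 428, 27.3, 305 and 232 in postnatal control cells. Its signals in embryonic cells were 39.3, 154, 225, 29.7 and 269.9 after transduction and 288, 163, 224, 18.6 and 73.6 in controls, with 2 of 5 arrays above background in each group. The postnatal groups did not overlap, and the log2 change was 2.49 ± 0.68 (adjusted p = 0.0049), with 4 of 5 control arrays above background. Without postnatal control array 3, the dimmest, it was 1.84 (adjusted p = 0.0169) and still called. The second Cacng5 probe set was also called, at 1.12. It was above background on 4 of 5 arrays in both embryonic groups and in postnatal controls, and on all 5 transformed arrays. Its means were 222 in embryonic transduced, 216 in embryonic control, 413 in postnatal transformed and 182 in postnatal control cells.

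Cacng8, a TARP gene best known from the hippocampus, averaged 247 ± 69.9 in embryonic transduced and 591 ± 97.3 in embryonic control cells (SD, n = 5 each), on 4 and 5 arrays above background. Its change was -1.24 ± 0.26 (adjusted p = 0.000468), and in postnatal cells it was -0.04 ± 0.26 (adjusted p = 0.927). A second, dimmer probe set gave -1.17 in embryonic cells and was not called (adjusted p = 0.121).

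Cacng4, a TARP gene of the developing brain, read 3627, 4908, 4087, 3991 and 3843 in postnatal transformed cells, against 9464, 7612, 8116, 6442 and 5955 in postnatal control cells. The groups did not overlap, and the change of -0.86 ± 0.19 passed on its adjusted p (0.000658) but not on its size. Without postnatal control arrays 4 and 5 it was -1.04 and would be called. In embryonic cells the change was -0.55 ± 0.19 (adjusted p = 0.0231). Cacng7 was above background on all 20 arrays, at 699.96 to 2464. Its changes were 0.34 ± 0.19 in embryonic and 0.34 ± 0.19 in postnatal cells, neither called. A second Cacng7 probe set gave -0.42 in embryonic cells, also not called. Cacng2, which encodes stargazin, was above background on 2, 4, 2 and 3 arrays of the embryonic transduced, embryonic control, postnatal transformed and postnatal control groups and was called in neither response. Cacng6, a member of the family related to calcium channel subunits, was above on 3, 4, 3 and 4 arrays in that order and was not called in either response.

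The kainate receptor genes gave 3 calls of 5 in embryonic cells, all lower, and 1 of 5 in postnatal cells, also lower. Grik3 encodes a low-affinity kainate subunit. It read 297, 283, 168, 482 and 250.05 in embryonic transduced cells, on 4 of 5 arrays above background, against 5338, 4590.4, 5652, 4855 and 4942 in embryonic control cells. The postnatal transformed cells gave 4847, 5624, 5185, 7079 and 5989.6, against 6299.99, 6673, 7918, 11250.3 and 7407 in postnatal controls. The embryonic groups were far apart and the postnatal groups overlapped. The changes were -4.10 ± 0.19 (adjusted p = 1.22e-13) and -0.44 ± 0.19 (adjusted p = 0.0677). A second Grik3 probe set showed no such change, at -0.053 in embryonic cells, and its signals over the 20 arrays ran from 17.1 to 99.1.

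Grik2, a low-affinity subunit that forms channels with Grik4 and Grik5 products, had signals of 187, 118, 138, 121 and 163 in embryonic transduced cells, against 637, 736, 828, 740.2 and 776 in embryonic control cells. It read 826, 1099, 1132, 1171 and 1181 in postnatal transformed cells, against 1665, 1247, 1101, 1774 and 1472 in postnatal controls. The transduced arrays were at background on 4 of 5, and the fitted change was -2.25 ± 0.18 (adjusted p = 8.16e-10), with -3.61 for the second probe set. In postnatal cells the groups overlapped and the change was -0.41 ± 0.18 (adjusted p = 0.0694).

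Grik1, a kainate subunit gene, was called lower in both responses. In embryonic cells its signals were 15.7, 21.2, 7.80, 19.7 and 46.2 after transduction, below background on all 5 arrays, against 222, 375, 355, 335 and 127 in controls, so that it fell at least 1.40-fold (adjusted p = 4.72e-06). In postnatal cells they were 46.4, 96.1, 167, 176 and 97.3 after transformation, on 2 arrays above background, against 997, 1221, 1004, 396 and 398 in controls, a fitted change of -2.59 ± 0.42 (adjusted p = 2.18e-05). The 2 low postnatal controls were arrays 4 and 5, and Grik1 stayed called without them, at -3.14. The second Grik1 probe set gave -0.51 in embryonic cells, not called, and -1.91 in postnatal cells, called.

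Grik4 and Grik5 encode the high-affinity kainate subunits, which need a low-affinity partner to form channels. Grik4 averaged 293 ± 121 in embryonic transduced and 539.9 ± 64.9 in embryonic control cells, a change of -0.95 ± 0.24 that was short of 2-fold (adjusted p = 0.00238). With quantile normalization it was -1.19 and with centring on the 75th percentile -1.05, both called. Grik5 averaged 2867 ± 378 in embryonic transduced and 1870.4 ± 381 in embryonic control cells (SD, n = 5 each), a change of 0.62 ± 0.13 (adjusted p = 0.000528), and it was the 1 gene of the family with an adjusted p under 0.05 in the higher direction in embryonic cells. In postnatal cells the changes were -0.018 ± 0.24 for Grik4 and -0.20 ± 0.13 for Grik5, and neither was called.

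Both kainate receptor auxiliary genes, Neto1 and Neto2, were called lower in embryonic cells, and Neto2 was called higher in postnatal cells. Neto1 had signals of 143, 116, 35.2, 162 and 168 in embryonic transduced cells, on 1 of 5 arrays above background, against 8537, 8772, 9400.2, 8664 and 7269 in embryonic control cells. In postnatal cells it read 18104, 18697, 16984, 16354 and 16573 after transformation and 14858, 14539, 18729.6, 12661 and 12075 in controls. On this representing probe set the embryonic groups were separated by the whole range from background to bright signal, and the postnatal groups overlapped. The fitted change was -6.05 ± 0.23 in embryonic cells (adjusted p = 5.77e-15) and 0.27 ± 0.23 in postnatal cells (adjusted p = 0.411), and the responses differed by 6.31 ± 0.33 (adjusted p = 1.86e-12). All 3 probe sets of Neto1 were called lower in embryonic cells, at -3.66 to -6.88, and none was called in postnatal cells. The probe set at -3.66 was above background on all 5 transduced arrays, with means of 424 there and 5298 in embryonic controls. The fall to background thus depended on the probe set.

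Neto2 read 3283, 2515, 2526, 2794 and 2850.3 in embryonic transduced cells, against 12068, 11603, 12231, 12616 and 12519.6 in embryonic control cells. It read 16873, 17576, 17859, 17572 and 17734 in postnatal transformed cells, against 9249, 10724, 9740.1, 6406 and 6422 in postnatal control cells. Neither pair of groups overlapped, and postnatal control arrays 4 and 5 were the lowest of their group. The changes were -2.13 ± 0.11 (adjusted p = 1.42e-12) and 1.07 ± 0.11 (adjusted p = 7.03e-08). Without postnatal control arrays 4 and 5 the postnatal change was 0.82 and no longer reached 2-fold, and it also fell short without either of them alone (0.98 in both cases). A second Neto2 probe set was called in the same directions, at -2.29 in embryonic and 1.39 in postnatal cells, whereas the other gave -0.93 in embryonic and -0.76 in postnatal cells and was not called in either.

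**Figure D3:**
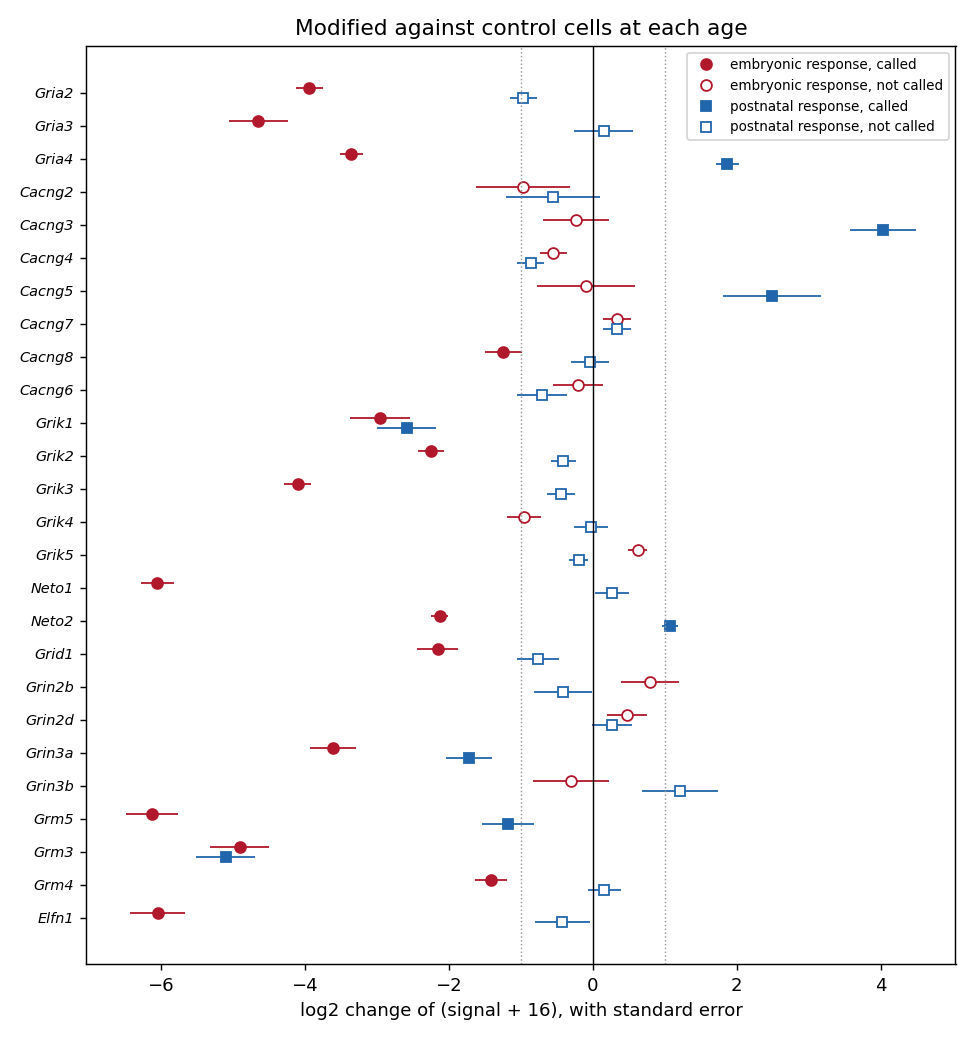
Log2 change with standard error of the 26 described genes, with circles for embryonic transduced against control cells and squares for postnatal transformed against control cells. Filled symbols are called (adjusted p under 0.05 and at least 2-fold, dotted lines); 15 filled circles lie left of 0, and the filled squares are 4 on each side.

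Grid1 encodes a delta receptor, which is known for organising synapses through a secreted cerebellin rather than for passing current. It read 190.5, 78.7, 129.9, 145 and 211 in embryonic transduced cells, on 2 of 5 arrays above background, against 632, 655, 914, 579 and 737 in embryonic control cells. In postnatal transformed cells it read 1237, 985, 1018, 1139 and 966, against 1332, 1079, 1351, 3267 and 3098 in postnatal controls, where arrays 4 and 5 were the highest of the group. The embryonic groups were apart and the postnatal groups overlapped. The fitted embryonic change was -2.15 ± 0.29 (adjusted p = 2.25e-06), and the postnatal change was -0.76 ± 0.29 (adjusted p = 0.0367), short of 2-fold. Without postnatal control arrays 4 and 5 the postnatal change was -0.23 (adjusted p = 0.551). Grid1 lies on chromosome 14, on which the 354 genes with a mean signal over 500 had a median postnatal change of -0.86, and the part of this in the Grid1 value was not tested.

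Of the 6 NMDA receptor genes measured, 1 was called lower in each response, Grin3a in both, and 0 were called higher. Grin3a encodes a glycine-binding subunit that lowers calcium entry through the receptor. Its signals were 99.7, 29.2, 121, 193 and 61.0 in embryonic transduced cells, on 1 of 5 arrays above background, against 1535, 1142, 1524, 1153 and 956 in embryonic control cells. They were 1340.3, 1448, 1830.1, 1238 and 1388 in postnatal transformed cells, against 4024, 3302, 3304, 7895 and 7221 in postnatal control cells. Neither pair of groups overlapped, and the brightest controls were again arrays 4 and 5. The changes were -3.61 ± 0.32 (fitted, adjusted p = 5.51e-09) and -1.72 ± 0.32 (adjusted p = 0.000119), and without postnatal control arrays 4 and 5 the postnatal change was -1.29 and still called. All 3 Grin3a probe sets were called lower in both responses.

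Grin3b, the other glycine-binding member of that subfamily, read 786, 574, 579.6, 669 and 611 in postnatal transformed cells, against 422, 132, 104, 536 and 412 in postnatal control cells, of which 3 were above background. The groups did not overlap, and the fitted change of 1.21 ± 0.53 missed the threshold (adjusted p = 0.0737). Without postnatal control arrays 4 and 5 it was 1.73 and called (adjusted p = 0.0186). Grin2d, which encodes a glutamate-binding subunit of the immature brain, was above background on all 20 arrays, at 246 to 676, and changed by 0.48 ± 0.27 in embryonic and 0.27 ± 0.27 in postnatal cells, neither called. Grin2b, the main glutamate-binding subunit gene of the embryonic forebrain, was above background on 4, 2, 3 and 5 arrays of the embryonic transduced, embryonic control, postnatal transformed and postnatal control groups, at signals of up to 394, and was called in neither response.

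Of the 6 metabotropic receptor genes measured, 3 (Grm5, Grm3 and Grm4, 1 of each group of the family) were called lower in embryonic cells, and 2 of these (Grm5 and Grm3) were also called lower in postnatal cells. Grm5 encodes a group I receptor, which acts through phospholipase C and calcium release. It read 199, 213, 87.5, 60.1 and 11.8 in embryonic transduced cells, on 2 of 5 arrays above background, against 7185, 6980.2, 6594, 8096 and 6483 in embryonic control cells. It read 1931, 1550.4, 1721, 1718 and 1694 in postnatal transformed cells, against 3235, 5099.7, 4086, 3796 and 3519 in postnatal control cells. Transduced cells were at or near background and transformed cells remained well above it. The fitted embryonic change was -6.12 ± 0.36 (adjusted p = 8.45e-12) and the postnatal change -1.17 ± 0.36 (adjusted p = 0.0116), and the responses differed by 4.95 ± 0.51 (adjusted p = 7.74e-08). The second Grm5 probe set gave -3.77 in embryonic cells and -0.95 in postnatal cells, the postnatal value just short of 2-fold.

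Grm3 encodes a group II receptor, which inhibits adenylyl cyclase and is known from glia as well as from neurons. Its signals were 119, 221, 26.1, 42.7 and 201 in embryonic transduced cells, on 1 of 5 arrays above background, against 3079, 3369, 3492, 3517 and 3106 in embryonic control cells. They were 18.6, 18.4, 20.9, 92.5 and 34.2 in postnatal transformed cells, below background on all 5 arrays, against 1690.2, 1497, 1825, 2033 and 1153 in postnatal control cells. Both modified groups sat at background while both control groups were bright. The fitted embryonic change was -4.90 ± 0.41 (adjusted p = 2.16e-09), and in postnatal cells Grm3 fell at least 9.94-fold (adjusted p = 1e-09). The difference between the responses was -0.20 ± 0.58 (adjusted p = 0.832), where both modified groups are at the floor of the measurement.

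Grm4, a group III receptor gene, read 692, 513, 419, 777 and 628 in embryonic transduced cells, against 1734, 1423, 1719.7, 1693 and 1472 in embryonic control cells. It read 432, 533, 768, 649 and 569 in postnatal transformed cells, against 587, 773, 629, 428 and 301 in postnatal control cells. The embryonic control arrays stood above all others, and the other 3 groups overlapped. The change was -1.41 ± 0.23 in embryonic cells (adjusted p = 2.37e-05) and 0.16 ± 0.23 in postnatal cells (adjusted p = 0.636).

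Elfn1 encodes a leucine-rich repeat protein of the cell surface that binds group III metabotropic receptors across the synapse. It read 306, 21.1, 63.8, 61.1 and 17.2 in embryonic transduced cells, on 1 of 5 arrays above background, against 5448, 4619, 5306, 5194 and 4308 in embryonic control cells. It read 4143, 3768, 4061, 3563 and 4284 in postnatal transformed cells, against 5202, 5793, 6549.6, 4518 and 4687 in postnatal control cells. The embryonic groups were far apart, and the postnatal groups did not overlap either, although their difference was small. The fitted embryonic change was -6.04 ± 0.38 (adjusted p = 1.97e-11), the postnatal change -0.42 ± 0.38 (adjusted p = 0.425), and the difference of the responses 5.62 ± 0.53 (adjusted p = 1.99e-08).

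Set side by side, the 2 responses gave 4 patterns among the called genes, each judged by its representing probe set. Gria4 and Neto2 were called lower in embryonic and higher in postnatal cells. Grik1, Grin3a, Grm3 and Grm5 were called lower in both. Cacng8, Elfn1, Gria2, Gria3, Grid1, Grik2, Grik3, Grm4 and Neto1 were called lower in embryonic cells and not called in postnatal cells. For all 9 the difference of the responses was itself called, at 1.20 ± 0.37 for Cacng8 to 6.31 ± 0.33 for Neto1. This difference was not called for a further probe set each of Gria2 (0.38), Grid1 (1.05), Cacng8 (2.05) and Grik3 (-0.29). All other further probe sets of the 9 genes were called. In the postnatal response itself, the other 2 probe sets of Gria2 were called lower, at -1.35 and -2.14, so its pattern depended on the probe set. Cacng3 and Cacng5 were called higher in postnatal cells and not called in embryonic cells, and their responses differed by fitted values of 4.26 ± 0.65 and 2.58 ± 0.97. For Cacng5 the adjusted p of this difference was 0.0388, and it was above 0.05 in 14 of 31 alternatives, at 0.0502 to 0.0783. Without postnatal control array 3 the Cacng5 difference was 1.93 and not called. Without postnatal control arrays 4 and 5 the difference for Cacng8 was 0.94 and no longer called. The 2 responses share no samples.

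The comparison of ages asks how postnatal cells differ from embryonic cells within the control state and within the modified state. In the modified state age cannot be told apart from the kind of modification, since embryonic cells were transduced and postnatal cells transformed. These comparisons share their groups with the responses above and add no independent evidence on them. In control cells 8 of the 33 genes were called higher in postnatal cells and 1 lower, against 4.86% and 5.72% of all genes. In modified cells 16 were called higher and 1 lower, against 11.7% and 13.7% of all genes. The median of the 33 genes was 0.48 in control cells (0.10 with members below background set at their bound) and 1.11 in modified cells (0.97), against -0.039 and -0.14 for all genes.

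In control cells the higher genes were Gria2, Gria3, Cacng4, Grik1, Grik4, Grid1, Grin2b and Grin3a. Gria2 averaged 22425 ± 3309.6 in postnatal and 5101 ± 244 in embryonic control cells (SD, n = 5 each), a change of 2.12 ± 0.19 (adjusted p = 1.54e-08). Gria3 changed by 1.63 ± 0.41, Cacng4 by 1.20 ± 0.19, Grik4 by 1.20 ± 0.24 and Grin3a by 1.93 ± 0.32. Grik1 averaged 803 ± 382 in postnatal and 283 ± 105 in embryonic control cells, a change of 1.39 ± 0.42 (adjusted p = 0.0128). Grid1 changed by 1.37 ± 0.29, but by 0.83 and without a call when postnatal control arrays 4 and 5 were left out. Grin2b, at 276 ± 103 in postnatal and 123 ± 64.7 in embryonic control cells with 5 and 2 arrays above background, had a fitted change of 1.15 ± 0.40 (adjusted p = 0.0327), which did not hold for the mean of its 4 probe sets (0.12). Grm4 was the 1 gene called lower in postnatal control cells, at -1.60 ± 0.23 (adjusted p = 9.58e-06). Grm3, at -1.03 ± 0.41 (adjusted p = 0.0599), was not called. It stayed so in 17 of 21 alternatives but was called, for example, with quantile normalization (-1.06). A second Cacng6 probe set was called lower, at -1.57 (adjusted p = 0.0335), and a second Grik2 probe set higher, at 1.21. Neither gene was called on its representing probe set.

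**Figure D4:**
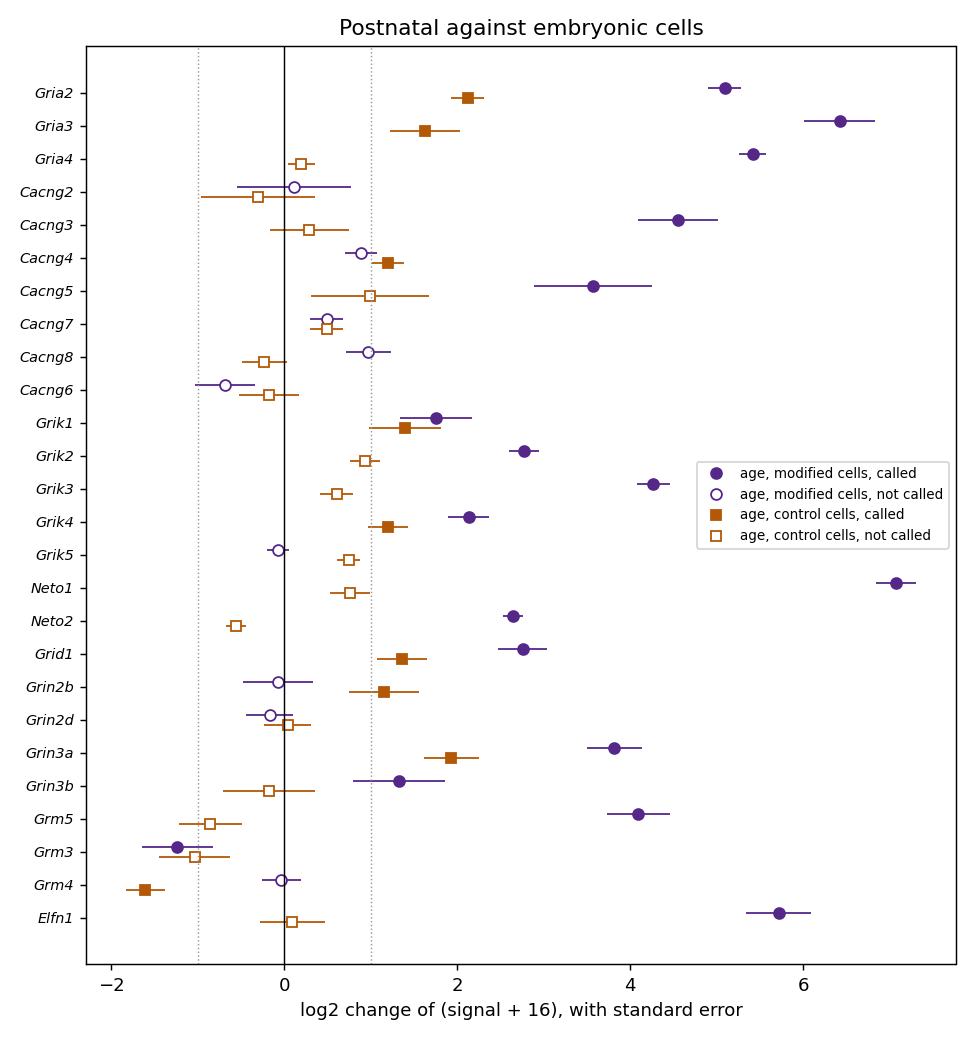
Log2 change with standard error of the 26 described genes between postnatal and embryonic cells, with circles for modified cells (transformed against transduced) and squares for control cells. Filled symbols are called; 16 filled circles lie right of 0, up to 7.07 for Neto1, and 8 filled squares do, up to 2.12 for Gria2.

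In modified cells the changes were wider. Neto1 averaged 17343 ± 1014 in postnatal transformed and 125 ± 54.1 in embryonic transduced cells, with a fitted change of 7.07 ± 0.23. Gria2, Gria4 and Grik3 changed by 5.09 ± 0.19, 5.42 ± 0.16 and 4.27 ± 0.19, and Gria3, Elfn1, Grm5 and Grin3a by fitted values of 6.42 ± 0.41, 5.72 ± 0.38, 4.09 ± 0.36 and 3.82 ± 0.32. Cacng3 was at least 8.79-fold higher in postnatal transformed cells (adjusted p = 1.91e-08), being below background on all 5 embryonic transduced arrays. Neto2, Grik2, Grid1, Grik4 and Cacng5 were also called higher, with changes between 2.13 ± 0.24 for Grik4 and a fitted 3.57 ± 0.68 for Cacng5; those of Grik2 and Grid1 were fitted too. Grin3b was called at 1.33 ± 0.53 with overlapping groups (adjusted p = 0.0399), and the call was lost in 9 of 20 alternatives, down to 0.84 (adjusted p = 0.149) without embryonic transduced array 3. Grik1 was called higher and Grm3 lower, but each lay above background on at most 2 of 5 arrays of either group, so no fold is given.

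The 7 remaining genes did not reach the background criterion in any group. They were Cacng1, Gria1, Grin2a, Grin2c, Grm2, Grm7 and Grm8, with signals between 6.07 and 292 over the 20 arrays, and 1 to 8 arrays above background per gene. None was called in any of the 5 comparisons. These genes are not shown to be absent from the cells.

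The counts of 6 lists of related genes were set beside those of the receptors. For every list, the shares among all genes were 8.61% called higher and 5.74% lower in embryonic cells. In postnatal cells they were 9.56% and 6.40%. Of 22 genes for other auxiliary proteins and synaptic organisers, 1 was called higher and 7 lower in embryonic cells, with a median of -0.019, and 3 higher and 5 lower in postnatal cells, with a median of -0.37. Sorcs1, a sorting receptor that binds AMPA receptors, was at least 13.2-fold lower in transduced embryonic cells, as was the synaptic adhesion gene Lrrtm3 by at least 8.73-fold, both below background on all 5 transduced arrays. Lrrtm1 averaged 251 in transduced and 2929 in control cells (fitted change -3.80 ± 0.34), and Cpt1c, an AMPA receptor partner of the endoplasmic reticulum, was higher by 1.69 ± 0.072. In postnatal cells Nptx1, a secreted pentraxin that clusters AMPA receptors, was higher by 4.53 ± 0.20, Olfm2 by 2.36 ± 0.15 and Sorcs2 by 3.17 ± 0.29, while Lrrtm2 was at -1.55 ± 0.15.

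Of 22 genes for postsynaptic scaffolds, 3 were called lower in embryonic cells and 4 in postnatal cells, and 0 higher in either, with medians of 0.17 and 0.03. In embryonic cells Lin7a averaged 145 after transduction and 940.4 in controls, and Nsf, an ATPase that binds the Gria2 product, averaged 4266 after transduction and 8574 in controls. Homer1 and Dlg1 were at 0.92 ± 0.091 and 0.66 ± 0.084, short of 2-fold. In postnatal cells Homer2, a scaffold of group I metabotropic receptors, fell by 2.35 on the log2 scale, and Shank3 and Dlgap3 changed by -1.30 ± 0.19 and -1.73 ± 0.25, while Dlg3 was at -0.83 ± 0.093.

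Of 19 genes for G protein and calcium signalling, 0 were called higher and 3 lower in embryonic cells (median -0.34), and 1 higher and 1 lower in postnatal cells (median 0.10). Prkcb, a protein kinase C gene, changed by -2.01 ± 0.065 and the phospholipase gene Plcb3 by -1.23 ± 0.13 in embryonic cells, with Gnai1 at -0.85 ± 0.07 and Adcy1 at -0.78 ± 0.11. In postnatal cells Gnao1 was higher by 1.30 ± 0.13, with Gnai1 at -0.83 ± 0.07, Plcb1 at 0.93 ± 0.21 and Gnai2 at 0.28 ± 0.056.

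Of 16 genes for glutamate transport and metabolism, 1 was called higher and 3 lower in embryonic cells (median -0.82), and 3 higher and 3 lower in postnatal cells (median 0.017). The glial glutamate transporter gene Slc1a3, which is also on the astrocyte list, changed by -1.56 ± 0.17, and the neutral amino acid transporter gene Slc1a5 was higher by 1.64 ± 0.18 in embryonic cells, with Slc38a3 at -0.95 ± 0.078 and Glud1 at -0.87 ± 0.091. In postnatal cells the cystine-glutamate exchanger gene Slc7a11 was higher by 3.40 ± 0.34 and Slc1a4 by 2.03 ± 0.096, Glud1 changed by -2.22 ± 0.091, and Got1 was at 0.72 ± 0.071. Glud1 lies on chromosome 14, as Grid1 does.

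Of 16 genes for GABA-A and glycine receptor subunits, 0 were called higher and 6 lower in embryonic cells (median -0.29), and 4 higher and 3 lower in postnatal cells (median 0.039). Gabrg1 averaged 471 in transduced and 10022 in control embryonic cells (-4.41 ± 0.17), and 668 in transformed and 6068 in control postnatal cells (-3.18 ± 0.17). In embryonic cells Glrb changed by -1.81 ± 0.21, Gabra4 fell at least 2.66-fold, and Gabra3 averaged 127 in transduced and 706 in control cells. In postnatal cells Gabra2 was higher by 1.88 ± 0.22 and Gabrb2 by 1.84 ± 0.24, and Gabre averaged 877 in transformed and 149.9 in control cells. Of the 3 genes for RNA editing of receptor transcripts 0 were called in either response: Adar, Adarb1 and Adarb2 were at 0.87 ± 0.083, 0.65 ± 0.23 and -0.35 ± 0.26 in embryonic cells and at 0.074 ± 0.083, 0.33 ± 0.23 and 0.80 ± 0.26 in postnatal cells.

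**Figure D5:**
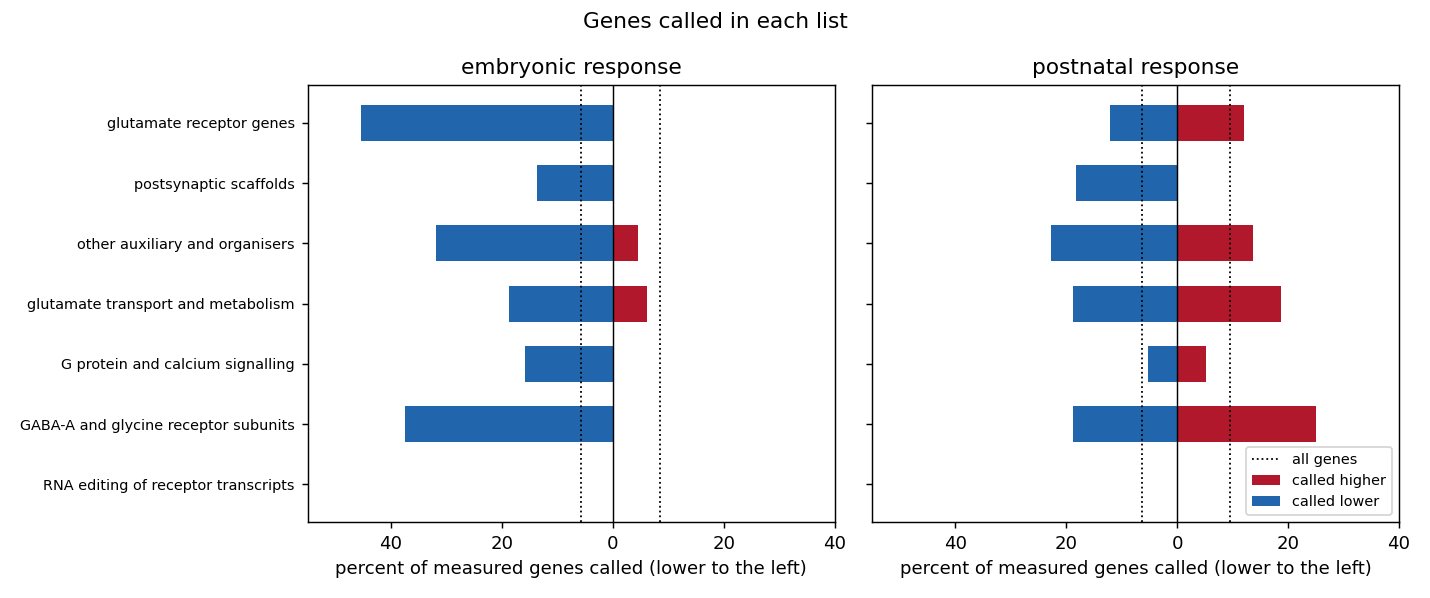
Share of the measured genes of each list that were called higher (right, red) and lower (left, blue), in percent, for embryonic transduced against control cells and postnatal transformed against control cells. Dotted lines are the shares among all genes (8.61% higher and 5.74% lower in embryonic, 9.56% and 6.40% in postnatal cells); the receptor genes reach 45.5% lower in embryonic cells, and no list has more than 1 gene called higher there.

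Most oligodendrocyte progenitor and neuronal markers were called lower after transduction, as many receptor genes were. Most markers of the other cell types were not. Of 10 oligodendrocyte progenitor markers, 8 were called lower and 0 higher in embryonic cells, and their summed signal was 117240 to 126526 per array in transduced and 279814 to 308792 in control cells. In postnatal cells 2 of the 10 were called lower and 0 higher, with sums of 320339 to 343591 in transformed and 357490 to 487993 in control cells. Of 10 neuronal markers, 9 were called lower and 0 higher in embryonic cells, with sums of 24159 to 26208 in transduced and 87698 to 92791 in control cells. In postnatal cells 3 were called higher and 3 lower, with sums of 96485 to 102274 in transformed and 78021 to 87090 in control cells. The part of these markers in the receptor results was not tested.

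Astrocyte markers were called lower for 3 of 10 and higher for 0 in embryonic cells, with sums of 122459 to 140311 in transduced and 106623 to 121288 in control cells. They were lower for 6 and higher for 1 in postnatal cells, with sums of 108769 to 114154 in transformed and 65837 to 170795 in control cells. Of 7 mature oligodendrocyte markers 2 were lower in embryonic and 3 in postnatal cells, and of 7 neural stem and progenitor markers 1 was higher and 1 lower in embryonic cells and 1 higher and 3 lower in postnatal cells. Microglial markers gave 1 of 8 higher in each response, Itgam in embryonic cells, which was below background in both groups, and P2ry12 in postnatal cells, which averaged 1364 in transformed and 166 in control cells. Endothelial and mural markers gave 1 of 7 higher and 1 lower in embryonic cells and 0 in postnatal cells. These lists too were not tested for a part in the receptor results.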

How the data were processed

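Total RNA of 20 samples was measured on single-colour Affymetrix arrays. The deposited values are linear intensities of 45101 probe sets per array. How they were made (software, background correction, normalization) is not given in the sources used here. With 2% of values trimmed at each end, the arrays had means of 2500.01 to 2500.02, so no further scaling was applied. Depth does not apply to arrays, and 5 arrays per group limit the precision.

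Probe sets with several symbols (932) or outside the platform annotation supplied with the series (9160) were not named, which left 34945 probe sets for 18193 genes. The 64 control probe sets were left out of the fit. No 2 arrays of the 190 pairs held identical values. Where a gene had several probe sets, the brightest by mean log2 represented it. The model was fitted to log2(signal + 16) of all 20 arrays, with a mean for each of the 4 groups, by limma 3.58.1 (lmFit, then eBayes with its trend option) under R 4.3.3, with the package data.table (1.17.8), after the code was tested on simulated data. The 5 comparisons were the embryonic response, the postnatal response, their difference, and postnatal against embryonic cells in controls and in modified cells. For a lower bound of a fold, each array of the dimmer group was set to its background level where that exceeded its signal, and mean log2 values were then compared.

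Every member was named: those above background on at least 4 of 5 arrays of a group with their values, the others by their range. From each other list up to 4 genes with the smallest p were named. The members and lists were chosen with earlier results of these data known. Alternatives changed the offset, scaling, filter, probe set rule, trend, fold threshold, replicate block and arrays used.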

Additional observations from a re-analysis of the deposited data

Results flagged for a closer look

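Among 79 groups of 5 arrays in which a gene was above background, 3 held an array far from the others, judged by the gap to its neighbour over the range of the group on the log2 scale; chance gives about 1 in 20. Grik2 on postnatal transformed array 1 was the lowest of its group, at 826 with 1099 next (gap over range 0.797). Grik5 on embryonic control array 4 was the highest of its group, at 2540.4 with 1803 next (0.763). Neto2 on postnatal transformed array 1 was the lowest, at 16873 with 17572 next (0.715).

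The postnatal and embryonic responses differed for 15 genes, by the test of the difference itself. In all 15 the postnatal log2 change was the higher. Embryonic cells are labelled transduced and postnatal cells transformed, so age cannot be told apart from the kind of modification. Each gene was judged by its representing probe set, and further probe sets of Gria2, Grik3, Neto2, Cacng5, Grid1 and Cacng8 were not all called. The differences were 6.31 for Neto1, 5.62 for Elfn1, 5.22 for Gria4, 4.95 for Grm5, 4.79 for Gria3 and 4.26 for Cacng3. They were 3.66 for Grik3, 3.20 for Neto2, 2.97 for Gria2, 2.58 for Cacng5, 1.89 for Grin3a, 1.84 for Grik2, 1.57 for Grm4, 1.39 for Grid1 and 1.20 for Cacng8. For Neto1, Elfn1, Grm5, Gria3, Grin3a, Grik2, Grid1 and Cacng5 the embryonic transduced cells were above background on 1 or 2 of 5 arrays, so the size depends on the offset, and for Cacng5 it ran from 1.84 to 3.06 over the alternatives. For Cacng3 the transduced cells were above on 0 arrays and both control groups on 1.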

How the results depend on the processing

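Of 64 calls of single genes over the 5 comparisons, 56 held under every alternative run, 8 were lost under at least 1, and 0 changed direction. These alternatives used the representing probe set or the mean of all probe sets of a gene, so no other probe set was judged alone. The embryonic call of Grik3, which its second probe set did not share (-0.053), counts as held for this reason. The 8 were Neto2 in the postnatal response, Cacng5 and Cacng8 in the difference of responses, Grid1 and Grin2b between control ages, and Grik1, Grin3b and Grm3 between modified ages. A further 13 results without a call gained one under at least 1 alternative other than dropping the fold threshold. The number of genes called ranged from 15 to 18 in the embryonic response, 7 to 11 in the postnatal response, 14 to 17 for the difference, 8 to 14 between control ages and 16 to 20 between modified ages. The highest value between control ages, 14 against 9, came without a fold threshold. With arrays left out 1 at a time the same counts ran from 15 to 17, 7 to 9, 14 to 17, 8 to 11 and 16 to 18. With background at the median of the bacterial probe sets, 27 genes in place of 13 were above it in embryonic transduced cells, against 28 in place of 22 in embryonic control cells.

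A replicate block left the 5 counts at 15, 8, 15, 9 and 17. Deviations of samples with the same number within an age correlated at -0.053 to 0.032, with 0 of 10 pairs of samples over 0.1. These correlations run over all genes, dim ones included, and cannot exclude a shared source, on which the labels are silent. Quantile normalization moved the median change of all genes in the difference of responses to 0.041 (-0.069 as deposited) and between modified ages to 0.0011 (-0.14 as deposited), and all called directions held. Signals within the background of 107 to 221 limit what can be seen for dim genes.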
